A study of Mus musculus with 6 samples.

Results

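The axon guidance genes of the ephrin, semaphorin and Slit families and their receptors were examined in the mouse cochlea, where sound is sensed, at postnatal day 7. The 58 genes were the protein-coding rows of the deposited table whose symbols name an ephrin (8 genes), an Eph receptor (14), a semaphorin (20), a plexin (9), a Slit (3) or a Robo (4), out of 18070 protein-coding genes and 30462 genes in all. RNA of 6 samples had been sequenced, 3 with the genotype label NEU4 KO (replicates 2, 4 and 5) and 3 labelled WT (replicates 3, 4 and 5), all of cochlea tissue. Neu4 encodes a sialidase, which removes sialic acid from glycoproteins and glycolipids. The labels give no strain, allele, sex or number of animals per sample, so the p-values below reflect variation among these samples, which may be technical.

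Axon guidance molecules are cell surface and secreted proteins that attract or repel growing nerve fibres and that also act in vessels, bone and epithelia. Ephrins of class A are held in the membrane by a lipid anchor and bind EphA receptor tyrosine kinases. Ephrins of class B cross the membrane and bind EphB receptors and some EphA receptors, and both partners can signal into their own cell. Semaphorins signal through plexins, and most secreted class 3 semaphorins need a neuropilin as co-receptor. Slits are secreted proteins bound by Robo receptors. In the cochlea, EphA4 on the otic mesenchyme and ephrin-B2 act in the bundling of spiral ganglion fibres, semaphorin 3F acts through neuropilin 2 on the choice of hair cells by type I fibres, semaphorin 5B limits the branching of these fibres, and Slit and Robo set the position of spiral ganglion neurons.

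Values were in FPKM, fragments per kilobase of exon scaled to library size, which can be compared between genes because they are per length. Values of single libraries are listed for knockout replicates 2, 4 and 5 and then, after the word against, for wild type replicates 3, 4 and 5. The values implied library totals of 15170973 to 17192293 fragments. Neu4 itself did not check the labels: its FPKM was 0.0518, 0.102 and 0.0853 against 0.0523, 0.1004 and 0.0810, from 4, 8 and 6 fragments in each group. Directions below therefore refer to libraries labelled knockout. By Xist and the Y-linked gene Ddx3y, 1 of the 3 knockout and 2 of the 3 wild type libraries were male. Of 15 lists of cell type markers, the summed FPKM of hair cell (24.0 to 27.4 in knockout against 20.3 to 22.4 in wild type), otic mesenchyme and fibroblast (1225 to 1233 against 1019 to 1136), osteoblast (3702 to 4759 against 3365 to 3626), melanocyte (27.6 to 29.9 against 23.4 to 26.9), neutrophil (77.4 to 135 against 26.4 to 66.3) and brain markers (12.8 to 13.9 against 10.2 to 12.3) was higher in each knockout library than in any wild type library. That of adipocyte (4.51 to 11.3 against 14.4 to 29.9) and middle ear epithelium markers (10.9 to 101 against 391.5 to 742.5) was lower in each. Bpifa1 led the middle ear sum in wild type (336, 608.5 and 402 FPKM), and Ltf and Bpifb1 of that list overlapped between the groups. Ibsp was likewise the largest part of the osteoblast sum and Otor of the otic mesenchyme sum. Spiral ganglion neuron (172.5 to 216 against 148 to 196), Schwann cell (1064 to 1241 against 938 to 1678) and endothelial and pericyte markers (159 to 168 against 163 to 177) overlapped, as did the lists of supporting cells, chondrocytes, skeletal muscle and macrophages. The part of these lists in the results below was not tested, and in whole tissue fewer cells of a type and less RNA per cell cannot be told apart. Slc26a5 of the hair cell list, Lep of the adipocyte list and Neurod6 of the brain list were listed at 0 in at least 1 library. Of the brain list Slc1a2 alone separated the groups, and Neurod6 had at most 4 fragments in a library. All 4 tested brain markers were higher in knockout, and a difference in brain tissue between the libraries was not tested. Likewise, all 5 tested hair cell markers were higher, and Otof alone of that list separated the groups.

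Levels ranged widely among the guidance genes. Over the 6 libraries, 4 genes had a mean of at least 50 FPKM (Plxnb2, Plxnd1, Sema7a and Efnb1), 16 had 10 to 50, 33 had 1 to 10 and 5 were under 1. The 10 most abundant genes made up 57.6% of the summed FPKM of the 58. The summed level of the receptors was 286, 282 and 275 FPKM against 303, 304 and 290, and that of the ligands was 397, 392.3 and 383 against 396, 404 and 391. The receptor sum thus lay lower in each knockout library than in any wild type library, and the ligand sums overlapped. The test took genes that reached 1 FPKM in 3 or more libraries, and 53 did. Epha5, Epha6, Epha10, Slit1 and Robo3 were under this level. Gene by gene, 14 of 23 tested receptors and 20 of 30 tested ligands were lower in knockout (43.1% of all tested genes were). The median log2 difference was -0.05 for receptors and -0.07 for ligands. Without overlap, 9 receptors lay lower and 2 higher, and 7 ligands lower and 5 higher (9.54% and 15.2% of all tested genes). At an unadjusted p under 0.05 (limma), 6 receptors were lower and 0 higher, and 6 ligands lower and 5 higher (6.99% and 10.6% of all). A difference between receptors and ligands was not tested. For the 53, the median coefficient of variation between libraries was 5.74% in knockout and 6.20% in wild type.

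None of the 53 guidance genes passed the test between the genotypes after adjustment over all 14072 genes tested, of which 0.334% were called, 0.128% higher and 0.206% lower in knockout (limma, Benjamini-Hochberg adjusted p under 0.05). Without knockout 2, 4 and 5 in turn, 15, 16 and 105 of all genes were called, against 47 with every library, and without wild type 3, 4 and 5 in turn 12, 12 and 21. With every library 18 were higher and 29 lower, and with median-ratio scaling of the libraries 11 were higher and 37 lower. Among the guidance genes the smallest adjusted p was 0.0734, for Sema6c. At an unadjusted p under 0.05, 12 of the 53 were lower in knockout (22.6%, against 6.99% of all tested genes) and 5 were higher (9.43%, against 10.6%). In 16 genes each knockout library lay below each wild type library (30.2%, against 9.54% of all tested genes), and in 7 each lay above (13.2%, against 15.2%). The fitted difference was negative for 34 of the 53, where 43.1% of all tested genes were negative, and positive for 19, where 56.9% were, and its median was -0.06 on the log2(FPKM + 1) scale against 0.02 for all tested genes. With median-ratio scaling of the libraries, 19 genes lay below and 6 above without overlap, where all tested genes gave 13.4% and 11.1%. Because the scale adds 1 to the FPKM, differences of low genes are understated.

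With voom on the fragments recovered from the FPKM values, 5 guidance genes passed, where 2.83% of all tested genes did. These were Ephb2 (log2 -0.33, adjusted p = 0.0172), Ephb3 (log2 -0.35, adjusted p = 0.0181), Sema6c (log2 -0.31, adjusted p = 0.0199) and Sema3f (log2 -0.38, adjusted p = 0.0367), all lower, and Sema5a (log2 0.34, adjusted p = 0.0180), which was higher. They were also among the 6 guidance genes with the smallest p in the test on FPKM, the other being Efna2. The plot of fitted differences shows how these genes stand among the other members of their families.

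**Figure D1:**
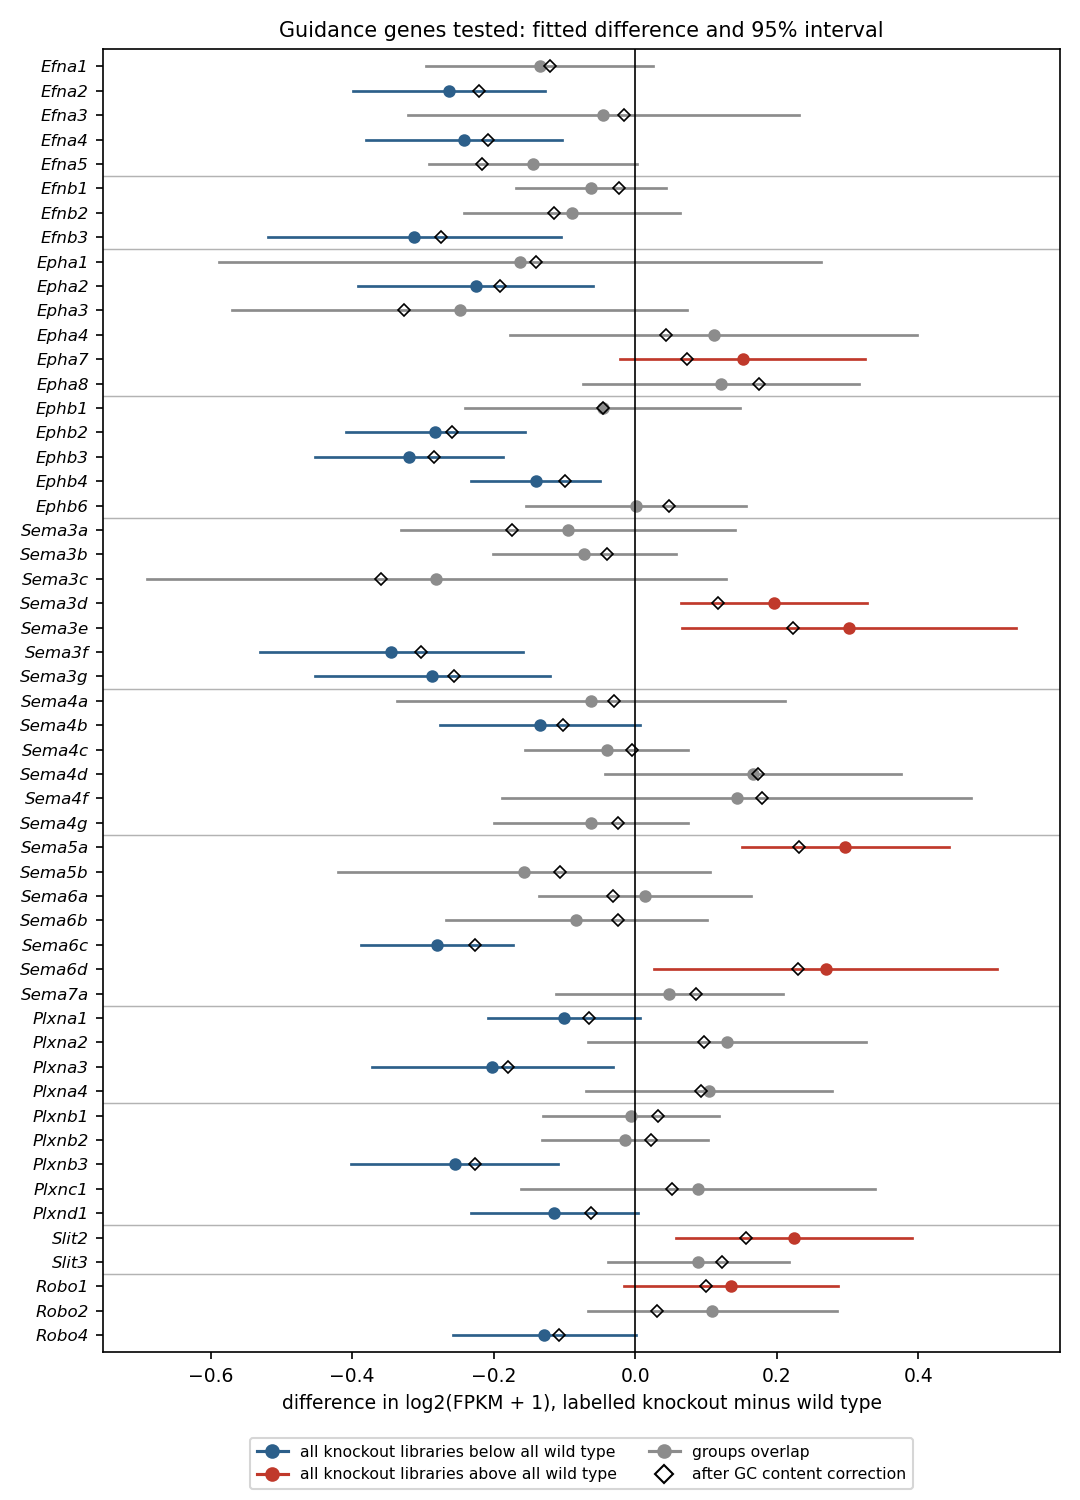
Fitted difference in log2(FPKM + 1), labelled knockout minus wild type (horizontal axis), with its 95% interval from limma, for the 53 guidance genes tested, in family order from ephrin-A at the top to Robo at the bottom. Filled points are the main values, coloured by whether the 3 knockout and 3 wild type libraries overlap, and open diamonds are the values after GC content correction; all 8 ephrins lie left of 0 in both.

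The direction of the difference went with the base composition of the transcripts. GC content was taken from the longest annotated transcript of each gene. Over the 53 genes its Pearson correlation with the fitted difference was -0.429, and over the 14061 tested genes with a transcript it was -0.213. These are descriptions across genes that share the 6 libraries, and genes are not replicates. Per 10 percentage points of GC, the log2 value of the tested genes departed from the gene mean by -0.034, -0.018 and -0.056 against 0.013, 0.049 and 0.046. The slope was thus negative in each knockout library and positive in each wild type library. The median GC content was 56.1% for the 53 guidance genes and 50.2% for all tested genes, and 28 of the 53 fell in the 2812 tested genes with the highest GC content (over 55.8%). Of these 28, 13 lay lower in knockout without overlap (46.4%, against 19.4% of all of those genes) and 0 lay higher (against 5.55%). Of the other 25, 3 lay lower (12%, against 7.09% of the 11249 genes of lower GC content) and 7 higher (28%, against 17.6%).

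After the trend with GC content was taken off each library, a correction chosen after seeing the data, the median difference of the 53 genes was -0.03 and that of all tested genes -0.0031. Of the 53, 13 were then lower at an unadjusted p under 0.05 (24.5%, against 7.75% of all tested genes) and 1, Sema5a, was higher (1.89%, against 7.1%). The corrected difference was negative for 33 of the 53, where it was negative for 51% of all tested genes. Efna5 (log2 -0.22) and Epha3 (log2 -0.33) joined the lower genes at that threshold, Ephb4 (log2 -0.10) left them, and Sema3d, Sema3e, Sema6d and Slit2 left the higher ones (log2 0.12, 0.22, 0.23 and 0.16). No guidance gene passed after adjustment. The correlation of GC content with the difference was -0.177 after the correction.

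Composition differs between close relatives, and the coding sequences below show it for a few genes that lay on opposite sides, chosen after their values were seen. Other members went the other way: over whole transcripts Epha3 (41.9%), Sema3a (40.8%) and Sema3c (42.7%) are poor in GC and lay lower, and Epha8 (61.3%) is rich in GC and lay higher. The Eph windows are the 90 coding bases centred on the conserved catalytic loop of the kinase domain, of a receptor lower in knockout (Ephb2) and one higher (Epha7). The semaphorin windows are 87 coding bases around a conserved cysteine motif behind the sema domain, of 2 class 3 ligands lower in knockout (Sema3f, Sema3g) and 2 higher (Sema3d, Sema3e). They are read 5′ to 3′ from GENCODE M21 transcripts (GRCm38), with G and C in capitals.
Ephb2: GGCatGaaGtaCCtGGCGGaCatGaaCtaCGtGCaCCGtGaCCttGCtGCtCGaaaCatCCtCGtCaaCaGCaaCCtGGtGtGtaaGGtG
Epha7: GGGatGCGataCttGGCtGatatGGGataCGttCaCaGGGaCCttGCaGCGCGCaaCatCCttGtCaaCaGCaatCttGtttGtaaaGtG
Sema3f: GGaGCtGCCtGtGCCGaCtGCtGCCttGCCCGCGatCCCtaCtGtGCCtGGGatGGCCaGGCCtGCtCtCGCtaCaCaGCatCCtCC
Sema3g: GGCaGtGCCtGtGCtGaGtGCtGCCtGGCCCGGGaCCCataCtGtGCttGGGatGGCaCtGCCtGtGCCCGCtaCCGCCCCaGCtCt
Sema3d: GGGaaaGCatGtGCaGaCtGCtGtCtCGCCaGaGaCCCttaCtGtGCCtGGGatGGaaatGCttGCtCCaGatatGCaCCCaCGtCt
Sema3e: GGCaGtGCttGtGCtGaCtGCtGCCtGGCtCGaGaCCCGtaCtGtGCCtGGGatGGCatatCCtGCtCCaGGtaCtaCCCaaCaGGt
The Ephb2 window lies in exon 12 on chromosome 4 (136659629 to 136659718, minus strand) and the Epha7 window in exon 13 on the same chromosome (28950419 to 28950508, plus strand). They share 69 of 90 bases, with a GC content of 54.4% for Ephb2 and 48.9% for Epha7. The same window of Ephb3, which lay lower, has 45 of 90 bases as G or C, close to the 44 of Epha7. The Sema3f window (chromosome 9, 107684227 to 107684313, minus strand, exon 15) has a GC content of 66.7%, and the Sema3g window (chromosome 14, 31225985 to 31226071, plus strand, exon 14) 67.8%. The Sema3d window (chromosome 5, 12571040 to 12571126, plus strand, exon 15) has 55.2% and the Sema3e window (chromosome 5, 14236333 to 14236419, plus strand, exon 14) 59.8%. That of Sema3a, which lay lower, has 57.5%, between these. Sema3f shares 61 of 87 bases with Sema3d and 63 with Sema3g. Over whole transcripts the GC content is 58.4% for Sema3f and 56.2% for Sema3g against 39.2% for Sema3d and 42.0% for Sema3e, and it is 55.4% for Ephb2 against 41.7% for Epha7.

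**Figure D2:**
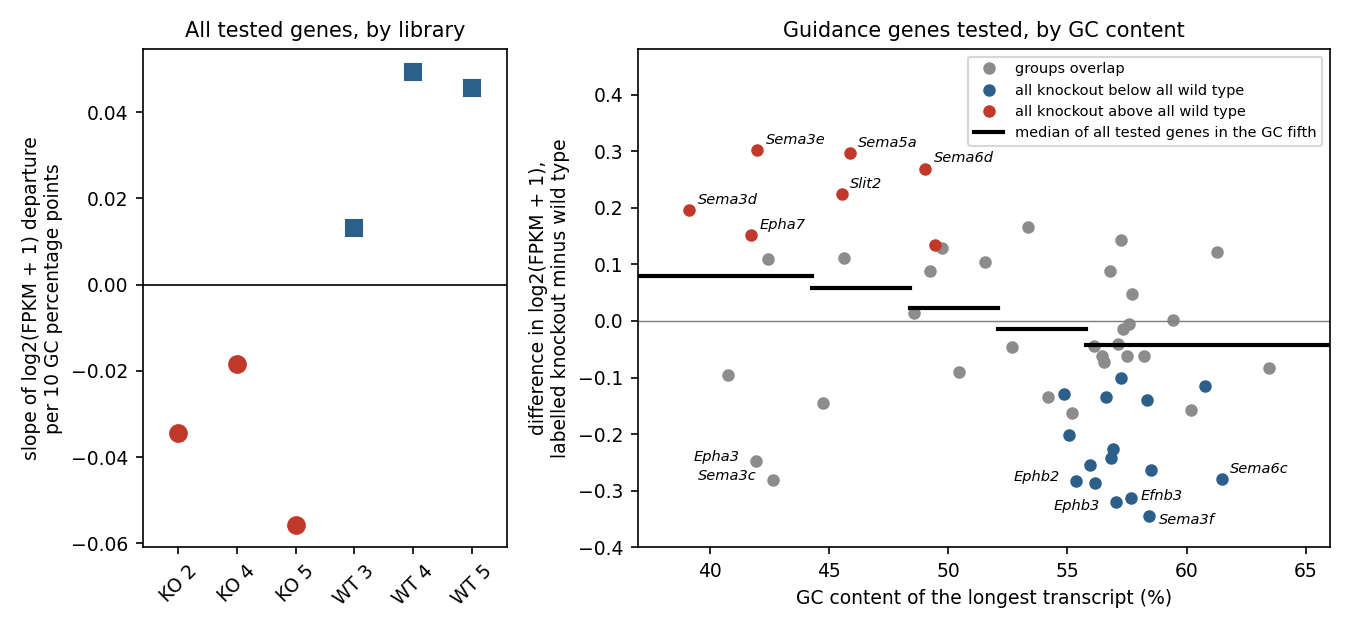
Left, slope of the departure of log2(FPKM + 1) from the gene mean per 10 percentage points of transcript GC content, over all tested genes, for each library (KO, labelled knockout; WT, wild type). Right, fitted log2 difference of the 53 guidance genes (vertical axis) against transcript GC content (horizontal axis, shown from 37% to 66%), with black bars for the median of all tested genes in 5 equal bins of GC content; those bars run from 0.0785 in the lowest bin to -0.0433 in the highest, and 13 of the 16 genes lower in knockout without overlap lie in the highest.

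The ephrins, the membrane-bound ligands, lay lower in knockout in all 8 genes (43.1% of all tested genes did), 3 of them without overlap (9.54% of all), and 0 were called (0.334% of all). Their summed level was 123, 126 and 124 FPKM against 133, 139 and 138. The median log2 difference was -0.14 for the class A genes and -0.09 for the class B genes, and it stayed negative with median-ratio scaling (-0.17 and -0.12) and after GC correction (-0.21 and -0.11).

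Efnb1, an X-linked gene active in bone and craniofacial tissue, was the most abundant ephrin. It had 55.6, 57.5 and 52.2 FPKM against 57.6, 58.1 and 57.0 (log2 -0.06, SE 0.045, adjusted p = 0.506, limma). Efnb2, the ligand of arteries and of spiral ganglion axons, had 13.2, 14.3 and 15.4 FPKM against 14.6, 15.95 and 15.2 (log2 -0.09, SE 0.065, adjusted p = 0.507, limma). The groups overlapped for both. Efnb3, a ligand of the midline of the nervous system, had 7.45, 7.67 and 9.48 FPKM against 9.86, 10.7 and 10.6 (log2 -0.31, SE 0.088, adjusted p = 0.161, limma). Knockout 5 was the nearest to wild type, and without it Efnb3 passed (log2 -0.41, adjusted p = 0.0473, limma), the 1 guidance gene called when any library was left out.

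Among the class A ephrins, Efna2 had 9.27, 9.51 and 10.6 FPKM against 11.9, 12.1 and 11.7 (log2 -0.26, SE 0.058, adjusted p = 0.117, limma). Efna4 had 6.61, 5.76 and 6.10 FPKM against 7.42, 7.38 and 7.55 (log2 -0.24, SE 0.059, adjusted p = 0.131, limma). The wild type libraries were close together in both genes and lay above every knockout library. Efna5, a ligand of EphA4 known from the targeting of spiral ganglion fibres, had 12.04, 12.8 and 13.1 FPKM against 13.0, 14.7 and 14.7 (log2 -0.14, SE 0.062, adjusted p = 0.290, limma), with knockout 5 above wild type 3. Its transcript is poor in GC (44.8%), and its difference was larger after GC correction (log2 -0.22). Efna1, the most abundant class A ephrin and a ligand of vessels and epithelia, had 17.7, 16.6 and 15.2 FPKM against 17.1, 18.1 and 19.3 (log2 -0.14, SE 0.068, adjusted p = 0.352, limma). Efna3 was low, at 1.36 to 1.98 FPKM in knockout and 1.52 to 2.00 in wild type. Exons of Efna4 share 168 bases, and those of Efna3 share 344, with antisense genes of under 1 FPKM, and the labels do not say if reads were counted by strand.

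**Figure D3:**
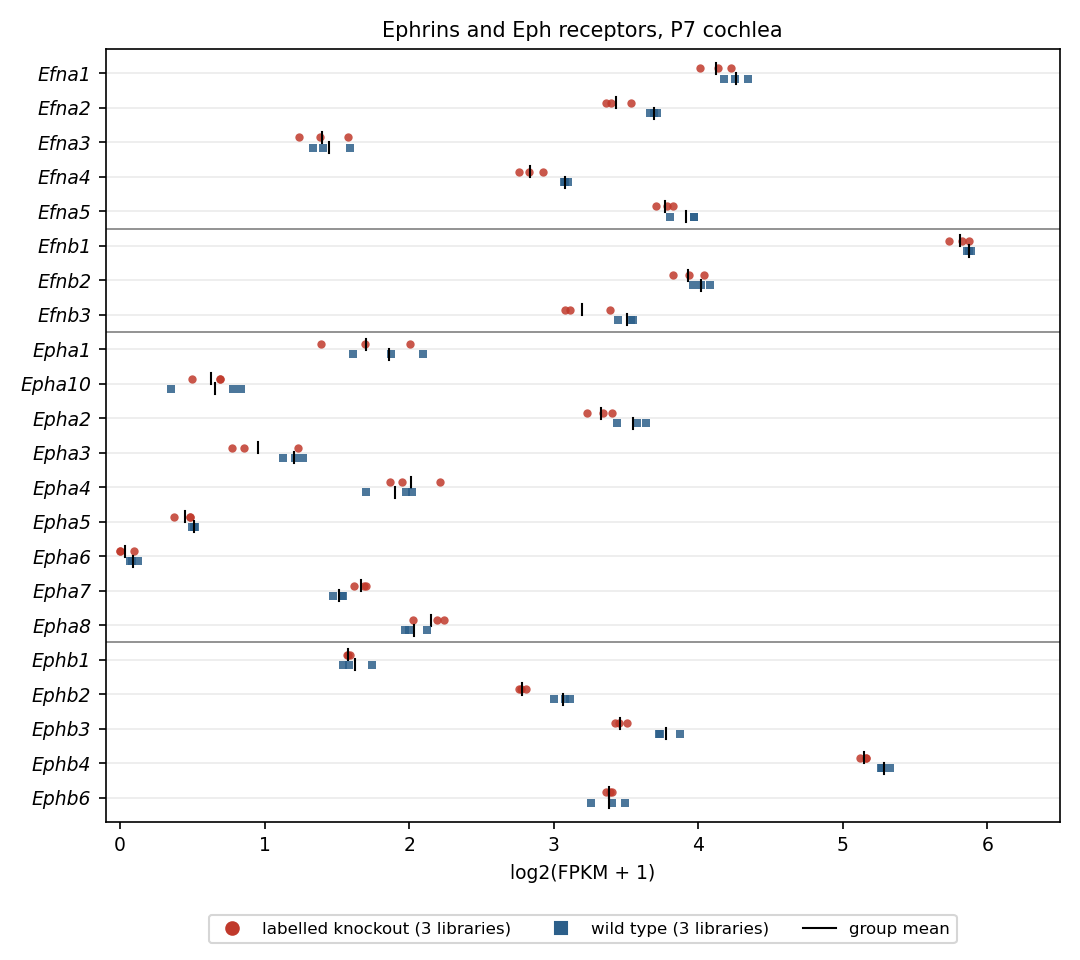
Level of the 8 ephrins and 14 Eph receptors in each library, as log2(FPKM + 1) (horizontal axis), with circles for the 3 labelled knockout libraries, squares for the 3 wild type libraries and a black bar for each group mean. Efnb1 and Ephb4 are the most abundant, and for Ephb2, Ephb3 and Ephb4 the circles lie left of the squares.

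The EphB receptors lay lower in knockout in 4 of 5 genes (43.1% of all tested genes did), 3 of them without overlap (9.54% of all). Their summed level was 61.5, 61.1 and 62.5 FPKM against 71.9, 69.1 and 68.0. Ephb3 had 9.71, 9.91 and 10.3 FPKM in knockout and 13.6, 12.3 and 12.3 in wild type, from 1042 to 1493 fragments (log2 -0.32, SE 0.056, adjusted p = 0.0792, limma). Ephb2, a receptor whose loss is known to alter fluid balance and behaviour in the vestibular part of the inner ear, had 5.76, 5.85 and 6.01 FPKM against 6.99, 7.65 and 7.44 (log2 -0.28, SE 0.054, adjusted p = 0.0924, limma). In both genes the 2 groups were separated by more than the range within either. Ephb3 passed when genes with a mean FPKM of at least 5 alone were tested (adjusted p = 0.0477, limma).

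Ephb4, the receptor of veins and the most abundant Eph gene, had 34.7, 33.8 and 34.7 FPKM against 39.2, 37.6 and 37.4 (log2 -0.14, SE 0.039, adjusted p = 0.155, limma). The endothelial markers Pecam1 (log2 -0.20) and Cdh5 (log2 -0.17) also lay lower in each knockout library, while Kdr (log2 0.16) lay higher in each. These markers were named because their groups did not overlap. Of all 8 endothelial and pericyte markers 4 were lower and 4 higher, with a median log2 of -0.03. Ephb6, whose kinase domain is inactive, had 9.26 to 9.58 FPKM in knockout and 8.57 to 10.2 in wild type (log2 0.00), and Ephb1 had 1.97 to 2.01 against 1.91 to 2.35. The 95% interval of the Ephb6 difference ran from -0.15 to 0.16.

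The EphA receptors had no common direction, with 3 of 6 tested genes lower and 3 higher, where 43.1% and 56.9% of all tested genes were. Epha2, an epithelial receptor and the most abundant of them, had 9.58, 9.13 and 8.39 FPKM against 11.4, 10.9 and 9.85 (log2 -0.23, SE 0.071, adjusted p = 0.180, limma). Epha7, a receptor of neurons and their surroundings, had 2.22, 2.25 and 2.07 FPKM against 1.77, 1.92 and 1.899 (log2 0.15, SE 0.074, adjusted p = 0.333, limma). Epha2 thus lay below, and Epha7 above, wild type in each library, and after GC correction the Epha7 difference was 0.07. Epha4, the receptor of the otic mesenchyme, overlapped, with 2.65, 2.87 and 3.63 FPKM against 3.06, 2.93 and 2.25 (log2 0.11, SE 0.122, adjusted p = 0.675, limma). Epha3 had 0.808 and 0.714 FPKM in knockouts 2 and 4 but 1.34 in knockout 5, within the 1.18 to 1.41 of wild type. Epha1 and Epha8 overlapped between the groups, and 6.01% of the exon bases of Epha1 are shared with Zyx, a gene of 24.7 FPKM on the other strand. Epha5 and Epha10 had means of 0.393 and 0.569 FPKM over the 6 libraries. Epha6 was at 0 to 8 fragments per library, with 0 in knockouts 2 and 5.

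Class 3 semaphorins, the secreted ones, split in both directions, with 2 genes lower and 2 higher without overlap among 7, where 9.54% and 15.2% of all tested genes were. Sema3f, the repellent that acts through neuropilin 2, had 10.001, 10.061 and 11.3 FPKM against 12.4, 15.04 and 13.2 (log2 -0.34, SE 0.079, adjusted p = 0.122, limma). Its value after GC correction was -0.30. Sema3g, made by arteries, had 2.72, 2.76 and 2.57 FPKM against 3.64, 3.64 and 3.21 (log2 -0.29, SE 0.071, adjusted p = 0.131, limma). Sema3d had 17.2, 18.2 and 19.6 FPKM against 15.4, 15.96 and 16.2 (log2 0.20, SE 0.056, adjusted p = 0.163, limma), and 0.12 after GC correction. Sema3e, the ligand of plexin-D1, had 1.40, 1.71 and 1.77 FPKM against 1.28, 1.04 and 1.06 (log2 0.30), where the mean of knockout was 144% of that of wild type on the FPKM scale.

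The other class 3 genes overlapped. Sema3b was the most abundant, with 18.1, 19.1 and 18.1 FPKM against 20.8, 19.2 and 18.4 (log2 -0.07, SE 0.055, adjusted p = 0.530, limma). Sema3a, the repellent of sensory axons, was near 1 FPKM, with 0.878, 0.988 and 1.14 against 1.03, 1.12 and 1.26 (log2 -0.09, SE 0.1004, adjusted p = 0.659, limma). Sema3c showed the same arrangement as Epha3, with 1.71 and 1.88 FPKM in knockouts 2 and 4 but 3.34 in knockout 5, above the 2.81 to 3.17 of wild type.

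**Figure D4:**
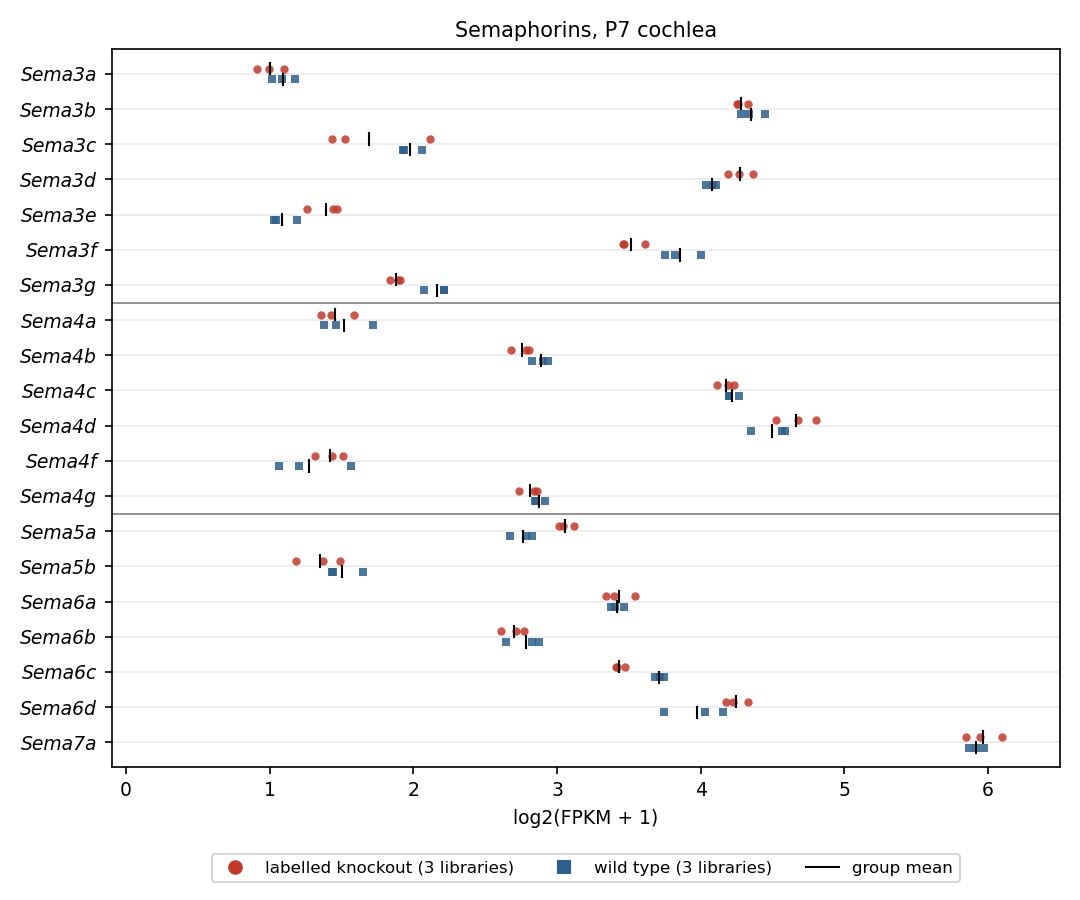
Level of the 20 semaphorins in each library, as log2(FPKM + 1) (horizontal axis), with circles for the 3 labelled knockout libraries, squares for the 3 wild type libraries, a black bar for each group mean and lines between class 3, class 4 and classes 5 to 7. Sema7a is the most abundant. Sema3f, Sema3g, Sema4b and Sema6c lie lower and Sema3d, Sema3e, Sema5a and Sema6d higher in the circles, without overlap.

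Of the 6 class 4 semaphorins, which cross the membrane, 4 lay lower and 2 higher (43.1% and 56.9% of all tested genes), with a median log2 of -0.05. Sema4d, the ligand of plexin-B1 known from bone and immune cells, was the most abundant, with 26.9, 24.5 and 22.0 FPKM against 19.4, 23.0 and 22.7 (log2 0.17, SE 0.089, adjusted p = 0.374, limma). Knockout 5 lay within the wild type range. Sema4b was the class 4 gene whose groups did not overlap, with 5.40 to 5.98 FPKM in knockout and 6.10 to 6.65 in wild type (log2 -0.13). Sema4c (16.3 to 17.8 against 17.3 to 18.2 FPKM), Sema4g (5.65 to 6.27 against 6.20 to 6.57), Sema4a and Sema4f overlapped.

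Among the semaphorins of classes 5 to 7, Sema6c and Sema5a had the smallest p in each direction. Sema6c, a transmembrane ligand, had 9.62, 9.69 and 10.1 FPKM against 12.4, 12.1 and 11.8 (log2 -0.28, SE 0.046, adjusted p = 0.0734, limma). It passed when genes with a mean FPKM of at least 5 alone were tested (adjusted p = 0.0424) and with library weights (adjusted p = 0.0395). Sema5a, a transmembrane semaphorin with thrombospondin repeats, had 7.67, 7.24 and 7.08 FPKM against 6.09, 5.90 and 5.37 (log2 0.30, SE 0.062, adjusted p = 0.108, limma). Its relative Sema5b, the one known from spiral ganglion branching, had 1.27, 1.81 and 1.59 FPKM against 2.13, 1.72 and 1.70 and overlapped (log2 -0.16, SE 0.112, adjusted p = 0.502, limma).

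Sema6d, a ligand of plexin-A1 known from the heart and immune cells, had 19.1, 17.7 and 17.1 FPKM against 16.8, 15.3 and 12.4 (log2 0.27), with wild type 5 lowest. Sema7a, the semaphorin with a lipid anchor, was the most abundant semaphorin, at 67.7, 60.7 and 56.6 FPKM against 61.7, 59.4 and 57.3 (log2 0.05, SE 0.068, adjusted p = 0.749, limma). Sema6a and Sema6b overlapped as well, at 9.15 to 10.7 against 9.40 to 10.03 FPKM and at 5.12 to 5.84 against 5.27 to 6.32 FPKM.

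The plexins, the semaphorin receptors, lay lower in 4 of 9 genes without overlap and higher in 0, where 9.54% and 15.2% of all tested genes did. The median log2 difference of the 9 was -0.01, and it was 0.02 after GC correction. Of the 4 genes, Plxna1 and Plxnd1 stood at -0.07 and -0.06 after the correction, and Plxna3 and Plxnb3 at -0.18 and -0.23. Plxna1, a receptor of spiral ganglion neurons and the most abundant class A plexin, had 19.8, 19.5 and 19.7 FPKM against 21.1, 22.2 and 20.3 (log2 -0.10, SE 0.046, adjusted p = 0.310, limma). Plxna3 had 6.57, 7.63 and 7.93 FPKM against 8.80, 8.26 and 8.78 (log2 -0.20, SE 0.072, adjusted p = 0.220, limma). Plxnb3, of glial cells, had 3.73, 3.99 and 3.91 FPKM against 5.02, 4.92 and 4.52 (log2 -0.26, SE 0.062, adjusted p = 0.130, limma). Plxna3 and Plxnb3 are X-linked, and with sex as a covariate their log2 differences were -0.24 and -0.25.

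Plxnd1, the receptor of vessels, had 61.7, 59.0 and 55.1 FPKM against 63.5, 64.8 and 62.1 (log2 -0.11). Plxnb2, found in many epithelia and the most abundant gene of the 58, had 66.1, 62.6 and 59.8 FPKM against 64.3, 65.0 and 61.0 (log2 -0.01, SE 0.050, adjusted p = 0.905, limma). Its groups overlapped, and the 95% interval ran from -0.13 to 0.10, and the sign turned with sex as a covariate (0.0175) and after GC correction (0.0218). Plxna2, Plxna4, Plxnb1 and Plxnc1 overlapped too, the first 2 with means of 112% and 110% of wild type and Plxnb1 with 99.6%.

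The tested Slits, Robo1 and Robo2 lay on the other side, higher in knockout, by small amounts (56.9% of all tested genes were higher). Slit2 had 9.24, 8.63 and 8.95 FPKM against 8.37, 6.98 and 7.23 (log2 0.22, SE 0.071, adjusted p = 0.182, limma). Slit3, the most abundant Slit, had 33.1, 31.8 and 30.1 FPKM against 30.4, 30.8 and 28.0 (log2 0.09, SE 0.054, adjusted p = 0.439, limma). Slit2 was higher in each knockout library than in any wild type library, and Slit3 overlapped. Slit1 was under 1 FPKM in each library (0.490 to 0.858).

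Robo1 had 3.69, 3.61 and 3.66 FPKM against 3.33, 3.39 and 3.01 (log2 0.13, SE 0.064, adjusted p = 0.330, limma). Robo2 had 2.51, 2.37 and 2.53 FPKM against 2.40, 2.20 and 2.06 (log2 0.11, SE 0.075, adjusted p = 0.488, limma), with knockout 4 under wild type 3. Robo4, the endothelial Robo, went the other way, with 6.13, 6.70 and 6.39 FPKM against 7.05, 7.36 and 6.88 (log2 -0.13, SE 0.055, adjusted p = 0.286, limma). Robo3, of commissural neurons, had 0 to 12 fragments per library. After GC correction the differences of Slit2, Robo1 and Robo2 were smaller, at 0.16, 0.10 and 0.03. That of Slit3 was larger, at 0.12, and that of Robo4 was -0.11.

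**Figure D5:**
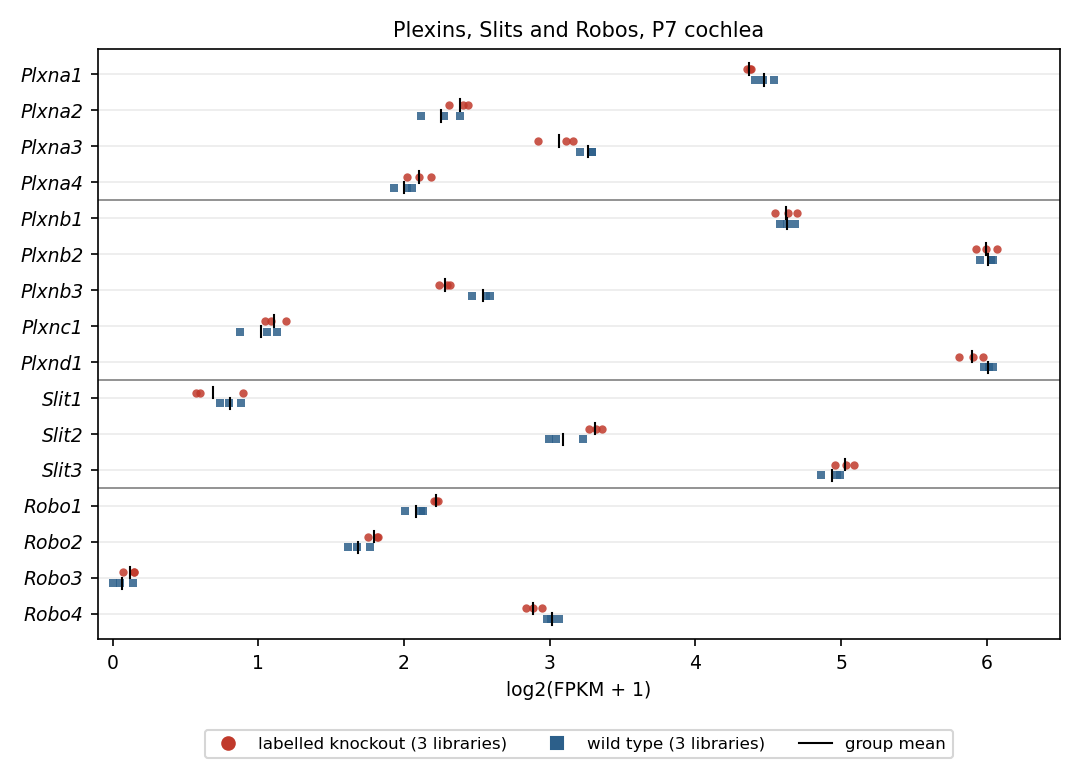
Level of the 9 plexins, 3 Slits and 4 Robos in each library, as log2(FPKM + 1) (horizontal axis), with circles for the 3 labelled knockout libraries, squares for the 3 wild type libraries and a black bar for each group mean. Plxna1, Plxna3, Plxnb3, Plxnd1 and Robo4 lie lower and Slit2 and Robo1 higher in the circles, without overlap.

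Of 73 partner genes of these pathways, 66 were tested and 0 were called (the smallest adjusted p was 0.0792, for Ntn4), 29 being lower and 37 higher, which is near the shares of all tested genes (43.1% and 56.9%). At an unadjusted p under 0.05, 6 were lower (against 6.99% of all tested genes) and 17 higher (against 10.6%). These counts were made without GC correction. The neuropilins, co-receptors of the class 3 semaphorins, both lay higher in each knockout library. Nrp2 had 62.3, 59.6 and 58.3 FPKM against 53.9, 54.0 and 51.3 (log2 0.18, SE 0.043, adjusted p = 0.131, limma). Nrp1 had 8.17, 7.96 and 8.56 FPKM against 7.06, 6.37 and 5.83 (log2 0.32, SE 0.071, adjusted p = 0.117, limma). After GC correction they stood at 0.16 and 0.24. With voom, 5 partners passed, where 2.83% of all tested genes did. Nrp1 (adjusted p = 0.0289), Ntn4 (adjusted p = 0.0253), Enah (adjusted p = 0.0267) and Adam10 (adjusted p = 0.0358) were higher, and Unc5a (adjusted p = 0.0447) was lower. Unc5a had reached the level for testing through the wild type libraries alone, so its call supports nothing.

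Of the 11 genes that act downstream of Robo, 8 were higher (56.9% of all tested genes were), 6 of them at an unadjusted p under 0.05 (10.6% of all). After GC correction Enah and Srgap3 alone of these 6 stayed under that threshold (7.1% of all tested genes were then higher at it). The corrected log2 differences were 0.15 for Enah and 0.13 for Srgap3. Those of Srgap1, Srgap2, Abl2 and Pak1 were 0.10, 0.14, 0.21 and 0.06. Values below are again without the correction. The 3 Slit-Robo GTPase activating proteins were alike, at log2 0.13 for Srgap1, 0.18 for Srgap2 and 0.15 for Srgap3, and Enah, an actin regulator, had 10.6, 10.7 and 10.99 FPKM against 9.52, 9.05 and 8.73 (log2 0.22, SE 0.049, adjusted p = 0.117, limma). Of the 17 plexin effectors 9, and of the 14 Eph effectors 8, were higher, near the share of all tested genes. Rnd2, a small GTPase that binds plexins, had 21.3, 19.9 and 20.8 FPKM against 17.2, 17.0 and 18.1 (log2 0.23, SE 0.046, adjusted p = 0.0964, limma). Exons of Rnd2 share 226 bases with Vat1 on the other strand. Adam10, the protease that sheds ephrins, was at log2 0.37 with an unadjusted p of 0.00380 (adjusted p = 0.128, limma).

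In the netrin and RGM group 7 of 11 tested genes were lower (43.1% of all tested genes were), among them Unc5a, a netrin receptor gene. Unc5a reached the level for testing through the wild type libraries alone, with 0.850, 0.992 and 0.965 FPKM against 1.66, 1.45 and 1.501, so that it had to differ and its count and its voom call support nothing. Ntn4, a netrin of basement membranes, had 13.1, 12.3 and 13.9 FPKM against 9.54, 10.7 and 9.92 (log2 0.35, SE 0.062, adjusted p = 0.0792, limma). Its log2 difference was 0.34 after GC correction. The axon attractant Ntn1 lay at 12.6 ± 1.94 FPKM in knockout and 16.2 ± 1.31 in wild type (SD, n = 3 each, log2 -0.34). Of the partners named here, Adam10, the Srgap genes, Abl2, Pak1, Ntn1 and Unc5a were chosen after their values were seen.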

How the data were processed

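Cochlear RNA of 6 samples was sequenced from libraries made with the VAHTS Universal V6 kit, per the labels' protocols. The authors deposited FPKM values per gene and library, per the file headers. Per the submitters' processing notes the build was GRCm38. The aligner and the read counting are not given in the labels. All 58 genes had the positions of GENCODE M21. FPKM times exon length was a whole number of fragments, to within 0.01 plus a relative tolerance of 1e-06, for 98.1% to 98.2% of values above 0, and for all 58 genes, which gave fragments and library totals.

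Genes reaching 1 FPKM in 3 or more libraries were fitted on log2(FPKM + 1) with limma (eBayes with a trend, two-sided, Benjamini-Hochberg over all tested genes, threshold 0.05). Members, lists, tests and alternatives were chosen with earlier results of these data known. Full statistics were given for any called gene, the most abundant tested gene of each family, the 12 with the smallest p and 14 known from cochlear innervation, and, of the partners, for the 4 with the smallest p, Nrp1 and Nrp2. The GC correction took a lowess (span 0.3) of each library's departure on transcript GC content off its values. In simulated data for this comparison (5 runs, 14048 genes in the median run) the test recovered 86% of genes changed 1.25-fold. Of its calls 4.6% were false. The simulated spread was set by the level of a gene alone, with no GC trend, sex or tissue difference between libraries. These rates therefore need not hold for the real data, and the lack of calls does not show a lack of change. The fit ran in limma 3.58.1 under R 4.3.3 and the summaries in pandas 2.3.3 under Python 3.11.15.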

Additional observations from a re-analysis of the deposited data

How the results depend on the processing

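Between settings, 0 guidance genes were called with other pseudocounts, no filter, median-ratio scaling, eBayes without a trend, sex as a covariate, the replicate block, both GC corrections or protein-coding genes alone. The count was 2 with a mean FPKM of at least 5, 1 with library weights, 5 with voom, and 0 to 1 with each library left out. Of all genes, 19 were called with no filter, 97 with a mean FPKM of at least 5, 19 without the trend, 104 with library weights, 24 with sex as a covariate, 22 with the replicate block, 390 with voom, 28 with GC correction, 26 with GC correction and the replicate block, and 12 to 105 with 1 library left out.

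The median difference of the tested guidance genes was -0.06, and it was -0.0900 with a mean FPKM of at least 5, -0.0932 with median-ratio scaling, -0.0795 with voom, -0.0309 with GC correction, -0.0431 with GC correction and the replicate block, and -0.0908 to -0.0444 with 1 library left out. The guidance genes lower at an unadjusted p under 0.05 numbered 7 to 17 over all settings, 7 being with GC correction and the replicate block, and the higher ones 1 to 7, 1 being with GC correction and 3 without knockout 2, knockout 4 or wild type 5. The share of all tested genes at that threshold moved with the setting too, so the counts alone do not compare the settings. In the main test 6.99% of all tested genes were lower and 10.6% higher at it. With GC correction these shares were 7.75% and 7.1%. With GC correction and the replicate block both shares were smaller than in the main test. The cause of these shifts was not tested. Replicate numbers 4 and 5 occur in both groups, and deviations of same-numbered libraries correlated at 0.141 and 0.15. With 2 such pairs the numbers do not establish a pairing. Knockout 2 and wild type 3 share their number with no library of the other group. All differences and calls with the replicate block therefore rest on replicates 4 and 5 of each group.

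Of 695 comparisons of 37 named genes with an alternative, 674 kept their direction and side of the threshold, 13 newly passed and 8 changed direction. The sign changed for Plxnb2 (0.0175 with sex as a covariate, 0.0218 with GC correction, 0.00588 with GC correction and the replicate block, and -0.0513 to 0.0199 with 1 library left out), Sema3b (0.028) and Sema5b (0.055) with GC correction and the replicate block, and Sema7a (-0.0197 to 0.107 with 1 library left out). Depth limits the low genes, Epha6 having at most 8 fragments in a library.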
